A study of Homo sapiens with 6 samples.

Results

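The genes described here carry out fatty acid oxidation and ketone body metabolism, the breakdown of fatty acids to acetyl-CoA and its turnover to and from ketone bodies. They are the 42 genes with a listed symbol among the 34036 genes of the count table, grouped by the step they catalyse. Steps inside the mitochondrion hold 25 genes and peroxisomal oxidation holds 9. The other 8 are the 6 activation and binding genes and the 2 acyl-CoA thioesterases. As groups these span several compartments and were counted with neither organelle. The synthetase gene ACSM3 and the thioesterase gene ACOT2 are therefore outside the mitochondrial counts, although their products are mitochondrial.

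HepG2, a human line derived from a hepatocellular carcinoma, was transfected with non-targeting siRNA (siControl) or with a Dharmacon siGENOME pool against DGUOK (siDGUOK). Lipofectamine RNAiMAX carried the siRNA in both groups, and RNA was sequenced 48 h later from 3 cultures per group, given by the submitters as independent biological replicates. The labels name polyA RNA, while the protocol gives both polyA selection and rRNA depletion without choosing 1. The comparison asks how hepatocyte-type cells respond at the RNA level to loss of DGUOK, the mitochondrial kinase that phosphorylates deoxyguanosine. Library totals were 19065684, 18915508 and 10527216 counts in siControl replicates 1, 2 and 3, and 18613138, 15978314 and 21334876 counts in siDGUOK replicates 1, 2 and 3.

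As background, a fatty acid is first joined to coenzyme A, and long chains then enter the mitochondrion as carnitine esters. Inside, repeated cycles of dehydrogenation, hydration, dehydrogenation and thiolysis shorten the chain, and electrons leave through the electron transfer flavoprotein. Peroxisomes shorten very long and branched chains by a parallel set of enzymes. In liver, surplus acetyl-CoA is turned into ketone bodies for export, and the nuclear receptor PPARA is a known activator of many of these genes.

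Levels are given as CPM, the counts divided by the library total scaled by edgeR's TMM factors and expressed per 1e+06, always in the order of replicates 1, 2 and 3. Levels of different genes are compared as TPM, which also divides by the exon length of the gene. DGUOK (ENSG00000114956.19), the siRNA target, was at 54.4, 53.1 and 48.2 CPM in siControl and 9.08, 10.5 and 6.72 CPM in siDGUOK libraries. Every siDGUOK library lay far below every siControl library, as its label requires. The log2 fold change was −2.57 ± 0.19 (SE), with an adjusted p of 1.64e-08 from edgeR's quasi-likelihood test with Benjamini-Hochberg adjustment over the 14476 genes tested. A gene was called when its adjusted p in this test was under 0.05 and its log2 fold change was above 0.5 in size, and the terms rose and fell are used only for called genes.

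The library siDGUOK replicate 1 stood apart in a set of very short genes. TRDJ1, TRDJ2, TRDJ3 and TRDJ4, joining segments of the T cell receptor delta locus of 48 to 59 bases, together had 100215 counts in it, 476 counts in siDGUOK replicate 2 and 0 counts in each of the other 4 libraries. These counts were 0.538% of the counts of siDGUOK replicate 1 but 27.1% of its TPM, which lowered the TPM of every other gene in that library. These genes were singled out after their values were seen. Groups are therefore compared by CPM and the count test, levels of genes by their mean TPM in the siControl libraries, and summed TPM is also given without genes under 200 bases.

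Of the 42 genes, 40 had enough counts for the test. ACADL had 0 counts in all 6 libraries, and CPT1B, the muscle isoform of the carnitine palmitoyltransferase, had between 0 and 14 counts. In siDGUOK cells 20 of the 40 fell, which is 50% of them, and 2 rose, which is 5%. Over all genes tested, 6.68% were called lower and 7.42% were called higher. The 3 siDGUOK libraries lay below the 3 siControl libraries for 29 of the 40 genes and above them for 3, where 17.3% of all genes tested lay below and 18.7% above. The median log2 fold change was −0.54 over the 40 genes and 0.02 over all 14476. The genes were listed with earlier results of these data known, so these counts describe the list and are no test of it.

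By compartment, 12 of the 23 mitochondrial genes tested fell and none rose, with a median log2 fold change of −0.54, and for 18 of them the siDGUOK libraries lay below the siControl libraries. Of the 9 peroxisomal genes 4 fell and none rose, with a median of −0.32, and 5 had all siDGUOK libraries below. At an unadjusted p under 0.05 in edgeR, 1 mitochondrial and 0 peroxisomal genes had a positive fold change, and DESeq2 called 0 higher in either. Both thioesterases fell. The activation step was mixed, with 2 genes lower and 2 higher. In bulk RNA, fewer cells of a type and less RNA per cell cannot be told apart, and the p-values measure the spread between these 6 cultures.

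**Figure D1:**
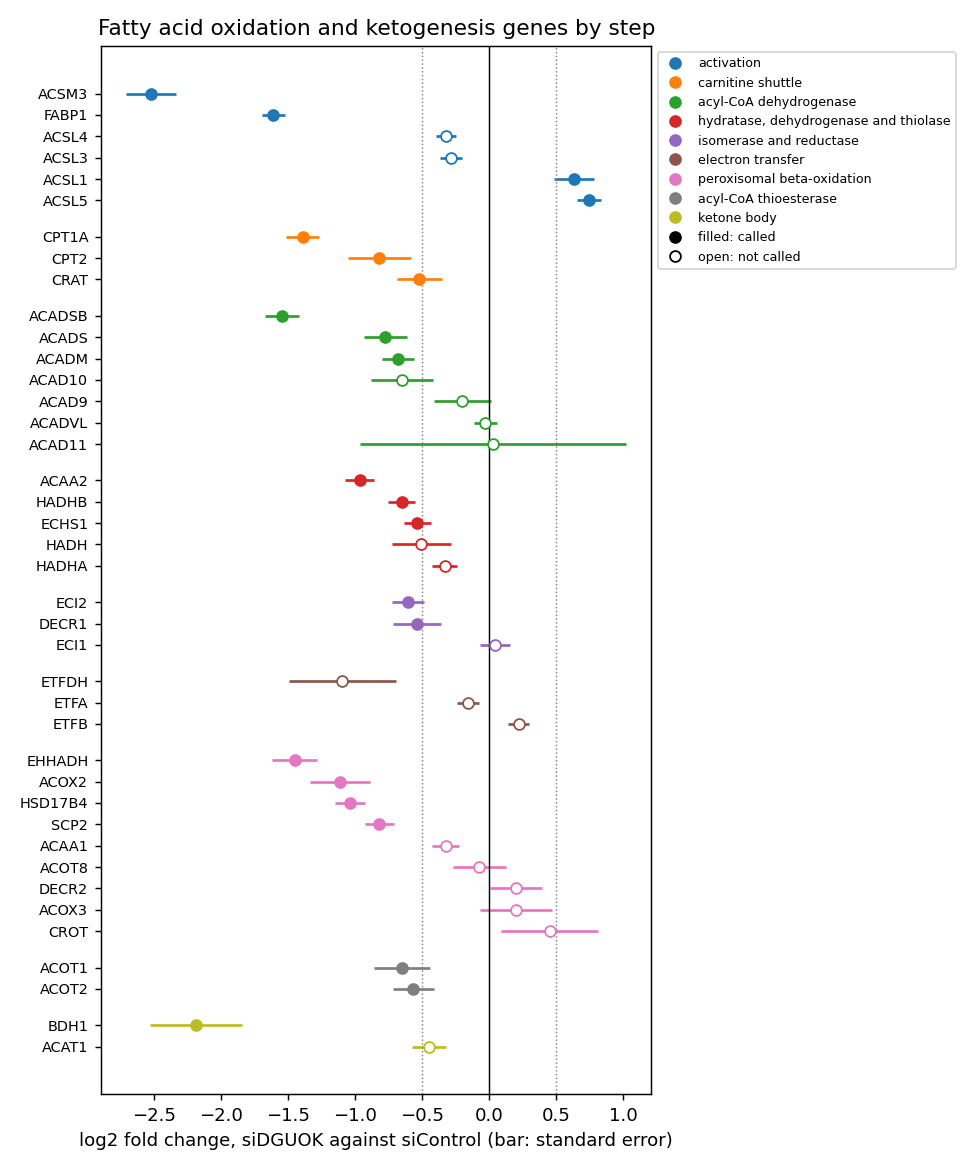
Log2 fold change of the 40 tested genes, siDGUOK against siControl, with its standard error as a bar, by step and coloured by step. Filled points were called (20 lower, 2 higher), open points were not, and dotted lines mark a log2 fold change of 0.5 in either direction.

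At the activation and binding step, FABP1 and ACSM3 fell, while the synthetases ACSL5 and ACSL1 rose. FABP1 encodes the liver fatty acid binding protein, which carries long-chain fatty acids through the cytosol, and was the most abundant of the 42 genes, with a mean of 1153 ± 97.5 TPM (SD, n = 3) in siControl cells. It was at 761, 839 and 696 CPM in siControl and 249, 269 and 234 CPM in siDGUOK libraries. The groups were widely separated and the libraries of each lay close together. FABP1 had a log2 fold change of −1.61 ± 0.08 (SE; adjusted p = 1.87e-10, edgeR). ACSM3, a mitochondrial synthetase that activates medium-chain acids, read 44.5, 43.5 and 57.1 CPM in siControl and 8.64, 8.99 and 7.54 CPM in siDGUOK libraries. All siDGUOK values were low and near each other, with the highest siControl value in replicate 3. Its change of −2.52 ± 0.19 on the log2 scale (SE; adjusted p = 1.58e-08, edgeR) had the lowest value among the 40 genes.

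The 4 ACSL genes encode long-chain acyl-CoA synthetases, which join coenzyme A to long-chain fatty acids, and they did not move together. ACSL5, found on mitochondrial and endoplasmic reticulum membranes, had 117, 122 and 138 CPM in siControl and 217, 212 and 202 CPM in siDGUOK libraries. Every siDGUOK library was above the siControl range. The log2 fold change of ACSL5 was 0.74 ± 0.09 (SE; adjusted p = 7.48e-06, edgeR). ACSL1, the main synthetase of adult liver, had 49.99, 33.0 and 49.2 CPM in siControl and 66.3, 64.1 and 74.0 CPM in siDGUOK libraries. The groups did not overlap, but siControl replicate 2 was lower than its group. With 0.63 ± 0.15 (SE; adjusted p = 0.00559, edgeR) ACSL1 was called, and without siControl replicate 2 the value was 0.46 (adjusted p = 0.0240, edgeR), under the fold change threshold. ACSL4, which prefers arachidonic acid, had 576, 555 and 584 CPM in siControl and 498, 435 and 439 CPM in siDGUOK libraries. ACSL3, a synthetase of the endoplasmic reticulum and lipid droplets, had 466, 446 and 439.7 CPM in siControl and 409, 354 and 346 CPM in siDGUOK libraries. Both sets of siDGUOK libraries lay below their siControl libraries by a small margin. Their log2 fold changes of −0.32 and −0.28 (adjusted p = 0.00477 and 0.0156, edgeR) passed the adjusted p but not the fold change threshold.

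As shares of the summed TPM of these 4 genes, ACSL4 was at 45.6 ± 0.511% in siControl and 34.5 ± 0.844% in siDGUOK cells (SD, n = 3). The share of ACSL5 was 24.2 ± 1.69% in siControl and 38.3 ± 1.21% in siDGUOK cells. ACSL3 made up 24.9 ± 1.24% and 19.3 ± 0.747%, and ACSL1 5.37 ± 1.03% and 7.91 ± 0.857%, in the same order. ACSL4 had the largest share in every siControl library and ACSL5 in every siDGUOK library, and for each gene the shares of the groups did not overlap. Counted as CPM, which leaves gene length aside, ACSL4 was at 48.0% in siControl and 41.4% in siDGUOK cells, and ACSL5 at 10.6% and 19.1%. The shares are a description with no test.

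**Figure D2:**
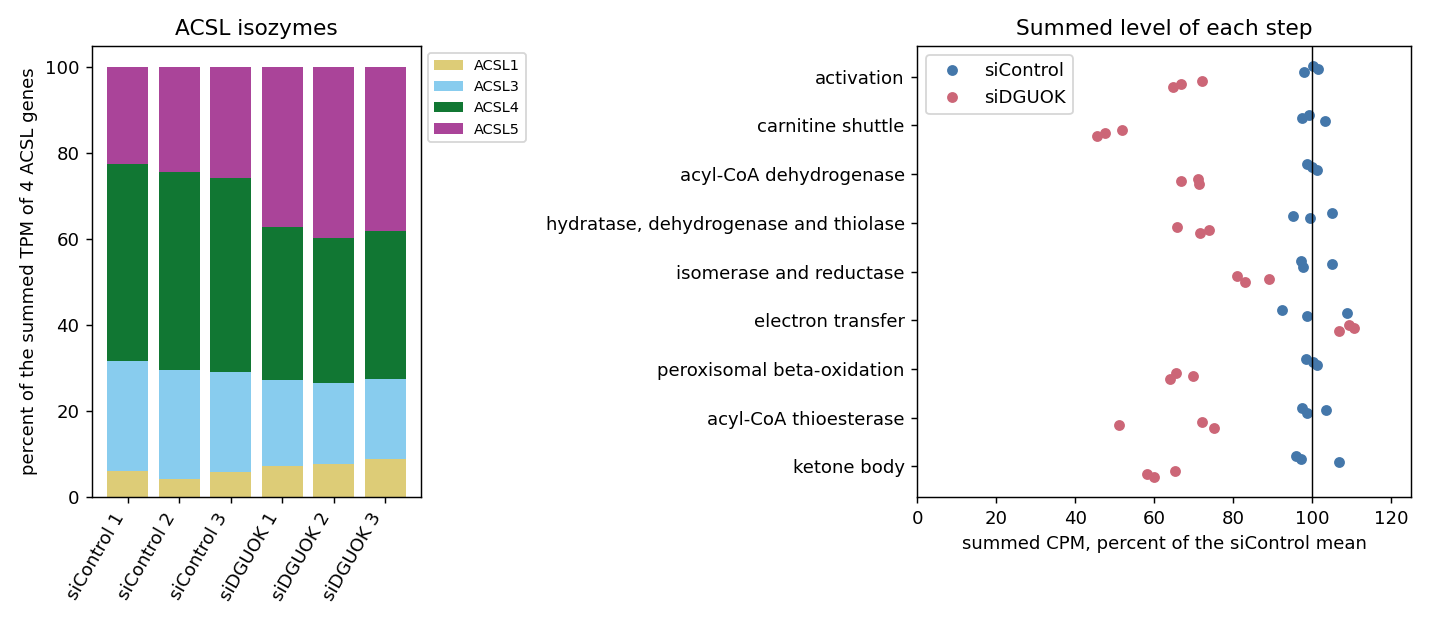
Left, share of each of the 4 ACSL genes in their summed TPM, in percent, as stacked bars for each of the 6 libraries; the ACSL5 share was 24.2% on average in siControl and 38.3% in siDGUOK. Right, summed CPM of each step in each library as percent of the siControl mean, which the vertical line marks at 100; only the electron transfer genes had siDGUOK values among or above the siControl values.

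Promoter sequence is shown for genes of the activation step, FABP1 as the most abundant gene that fell and ACSL5 as the gene with the largest rise in the list. Both come from RefSeq on GRCh38.p14 and run 5′ to 3′ along the strand of the gene. The FABP1 stretch is chr2:88128063-88128312 on the minus strand, the 250 bases before the start. Capitals mark TGACCTCTGGCC, which on the opposite strand holds GGNCA, any base, A and again GGNCA, a loose form of the direct repeat bound by PPARA, and begins 68 bases before the start, and a TATAAA. ACSL5 has 2 annotated starts, and the stretch shown, chr10:112375955-112376197 on the plus strand, has 243 bases and ends 7 bases before the downstream start.
FABP1: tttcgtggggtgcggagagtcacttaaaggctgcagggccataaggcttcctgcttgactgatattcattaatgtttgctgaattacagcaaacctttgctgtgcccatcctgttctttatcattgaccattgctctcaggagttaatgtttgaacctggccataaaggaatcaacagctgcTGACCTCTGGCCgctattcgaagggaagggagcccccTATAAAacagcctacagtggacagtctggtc
ACSL5: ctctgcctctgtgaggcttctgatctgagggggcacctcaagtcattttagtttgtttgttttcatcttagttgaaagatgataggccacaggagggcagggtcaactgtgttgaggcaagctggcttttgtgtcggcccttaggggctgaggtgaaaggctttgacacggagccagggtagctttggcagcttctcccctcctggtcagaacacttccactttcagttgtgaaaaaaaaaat
The FABP1 window had 48.0% G and C, and the ACSL5 stretch 49.4%, below the median of 65.6% for the windows of the list. Which start was used in these cells was not measured.

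In the carnitine shuttle all 3 genes tested fell. CPT1A encodes the liver form of the outer-membrane carnitine palmitoyltransferase, the regulated entry step for long-chain fatty acids, and had the highest level of the step, at 71.6 TPM in siControl cells. It read 133, 129.5 and 126 CPM in siControl and 50.8, 57.5 and 39.3 CPM in siDGUOK libraries. The siControl libraries were tightly grouped and the siDGUOK libraries all lay well below them, replicate 3 lowest. For CPT1A the log2 fold change was −1.39 ± 0.13 (SE; adjusted p = 2.3e-07, edgeR). CPT2, the inner-membrane enzyme that returns the acyl group to coenzyme A, read 14.4, 21.1 and 22.1 CPM in siControl and 12.1, 10.3 and 10.3 CPM in siDGUOK libraries. The groups did not overlap, though siControl replicate 1 lay close to siDGUOK replicate 1. CPT2 had a log2 fold change of −0.82 ± 0.23 (SE; adjusted p = 0.0180, edgeR). CRAT, the carnitine acetyltransferase of short chains, read 53.1, 46.7 and 61.4 CPM in siControl and 41.7, 27.5 and 42.6 CPM in siDGUOK libraries. Its siDGUOK replicate 2 was lower than the rest, and the other siDGUOK libraries lay just under the siControl range. CRAT had a change of −0.52 ± 0.17 (SE; adjusted p = 0.0349, edgeR). Leaving out siControl replicate 2 or 3 or siDGUOK replicate 2 ended the CPT2 call (adjusted p from 0.0520 to 0.103, edgeR), and leaving out siControl replicate 1 or 3 or siDGUOK replicate 2 ended that of CRAT (adjusted p from 0.0875 to 0.196, edgeR), as did DESeq2's shrunken fold change of −0.47.

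Among the acyl-CoA dehydrogenases, which open each cycle of oxidation, ACADSB, ACADS and ACADM fell, and the most abundant, ACADVL, was not called. ACADVL, which acts on very long chains at the inner membrane, had 181 TPM in siControl cells, with 222, 267 and 229.7 CPM in siControl and 234, 226 and 244 CPM in siDGUOK libraries. These ranges overlapped throughout. Its log2 fold change was −0.03 ± 0.09 (SE; adjusted p = 0.865, edgeR). ACADSB, which oxidises short branched chains in isoleucine breakdown, had 171, 135 and 164 CPM in siControl and 57.2, 59.5 and 43.7 CPM in siDGUOK libraries. The lowest siControl library was still above every siDGUOK library by a wide margin. ACADSB had a change of −1.55 ± 0.13 (SE; adjusted p = 6.19e-08, edgeR). ACADS, the short-chain enzyme, had 69.9, 68.4 and 66.1 CPM in siControl and 47.5, 28.1 and 43.7 CPM in siDGUOK libraries. The siControl values were nearly equal, and siDGUOK replicate 2 was the lowest. For ACADS the test gave −0.78 ± 0.16 (SE; adjusted p = 0.00184, edgeR). ACADM, the medium-chain enzyme, had 73.5, 75.7 and 89.4 CPM in siControl and 48.0, 49.9 and 50.9 CPM in siDGUOK libraries. The siDGUOK libraries sat close together below all siControl libraries. ACADM had a change of −0.68 ± 0.12 (SE; adjusted p = 0.000433, edgeR).

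The remaining dehydrogenases were not called. ACAD10 had all siDGUOK libraries below the siControl libraries, with a log2 fold change of −0.65 ± 0.23 (SE; adjusted p = 0.0556, edgeR). It was called without siDGUOK replicate 3 (adjusted p = 0.0223, edgeR) and among genes with a mean CPM above 10 (0.0391). ACAD9, which also serves assembly of respiratory complex I, had −0.20 ± 0.22 (SE) with overlapping libraries. ACAD11 stayed between 0.667 and 2.14 CPM in all libraries.

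The enzymes that complete the mitochondrial cycle all had siDGUOK libraries below siControl libraries, and 3 of the 5, ACAA2, HADHB and ECHS1, fell. HADHA and HADHB are the subunits of the mitochondrial trifunctional protein, which carries out the last 3 reactions on long chains. HADHA, with 292 TPM the most abundant of the step in siControl cells, had 382, 303 and 355 CPM in siControl and 255, 297 and 274 CPM in siDGUOK libraries. Its siControl replicate 2 lay just above siDGUOK replicate 2. The log2 fold change of HADHA, −0.33 ± 0.09 (SE; adjusted p = 0.0132, edgeR), was under the threshold for a call. HADHB had 135, 132 and 128 CPM in siControl and 73.2, 86.4 and 91.3 CPM in siDGUOK libraries. Its groups were clearly apart. For HADHB the log2 fold change was −0.66 ± 0.10 (SE; adjusted p = 0.000135, edgeR), and whether the subunits differed from each other was not tested. Their genes lie head to head on opposite strands, with starts 307 bases apart.

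ACAA2, the thiolase that releases acetyl-CoA in the mitochondrion, was at 106, 107 and 97.6 CPM in siControl and 56.5, 52.0 and 50.6 CPM in siDGUOK libraries. Both groups were tight and far apart. ACAA2 had a log2 fold change of −0.97 ± 0.11 (SE; adjusted p = 3.06e-06, edgeR). ECHS1, the short-chain enoyl-CoA hydratase that also acts in valine breakdown, was at 94.7, 102 and 98.7 CPM in siControl and 64.7, 67.5 and 71.6 CPM in siDGUOK libraries. Its siDGUOK libraries lay evenly below the siControl libraries. Its change was −0.54 ± 0.10 on the log2 scale (SE; adjusted p = 0.00100, edgeR). HADH, the short-chain 3-hydroxyacyl-CoA dehydrogenase, had −0.51 ± 0.22 (SE; adjusted p = 0.121, edgeR) and was not called. The 250 bases before the ECHS1 start, chr10:133373355-133373604 on the minus strand of GRCh38.p14 (RefSeq), are shown as an example of the windows rich in G and C that are common in the list, at 79.6%.
ECHS1: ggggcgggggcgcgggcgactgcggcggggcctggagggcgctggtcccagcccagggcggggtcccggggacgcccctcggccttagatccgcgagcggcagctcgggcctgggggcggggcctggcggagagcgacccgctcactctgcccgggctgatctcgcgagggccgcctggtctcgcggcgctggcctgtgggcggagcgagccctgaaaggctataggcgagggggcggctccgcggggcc
None of the motifs searched was found in it, so it has no capitals.

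The auxiliary enzymes that prepare unsaturated chains were split. ECI2 and DECR1 fell, and ECI1, the most abundant of the step with 133 TPM in siControl cells, was not called. ECI1, an enoyl-CoA isomerase, was at 109.6, 139.7 and 103 CPM in siControl and 114, 123 and 127 CPM in siDGUOK libraries. Its siControl replicate 2 was the highest of all, and the groups overlapped. A log2 fold change of 0.04 ± 0.11 (SE; adjusted p = 0.860, edgeR) was estimated for ECI1. ECI2, an isomerase found in mitochondria and peroxisomes, was at 90.3, 83.7 and 93.5 CPM in siControl and 55.3, 67.5 and 53.2 CPM in siDGUOK libraries. Every siDGUOK library was below the siControl range, replicate 2 nearest to it. The change of ECI2 was −0.60 ± 0.12 (SE; adjusted p = 0.00117, edgeR). DECR1, the mitochondrial dienoyl-CoA reductase, was at 32.9, 28.6 and 37.9 CPM in siControl and 25.3, 23.6 and 19.2 CPM in siDGUOK libraries. Its groups did not overlap but lay close, siDGUOK replicate 1 being near siControl replicate 2. DECR1 had −0.54 ± 0.18 (SE; adjusted p = 0.0410, edgeR), and the call was lost without siControl replicate 1 or 3 or siDGUOK replicate 2 or 3 (adjusted p from 0.0699 to 0.189, edgeR) and with DESeq2's shrunken fold change of −0.48.

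None of the 3 electron transfer genes was called in edgeR's test, and 0 were called by DESeq2, while 1 had an unadjusted p under 0.05 with a negative and 1 with a positive fold change. ETFA and ETFB form the flavoprotein that accepts electrons from the dehydrogenases, and ETFDH passes them to ubiquinone. ETFB, with 310.3 TPM in siControl cells, was at 508, 613 and 539.7 CPM in siControl and 641, 656 and 636 CPM in siDGUOK libraries. All siDGUOK values lay above the siControl values, siControl replicate 2 nearest to them. For ETFB the log2 fold change was 0.22 ± 0.08 (SE; adjusted p = 0.0550, edgeR). ETFA and ETFDH had siDGUOK libraries below siControl libraries, with log2 fold changes of −0.16 ± 0.08 and −1.10 ± 0.40 (SE; adjusted p = 0.215 and 0.0625, edgeR). ETFDH was low, between 2.25 and 11.99 CPM, and was called without the count filter (adjusted p = 0.0414, edgeR).

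Of the ketone body genes, BDH1 fell and ACAT1 stayed under the fold change threshold. BDH1 encodes the mitochondrial dehydrogenase that interconverts acetoacetate and 3-hydroxybutyrate. Its level was 18.4, 26.8 and 19.4 CPM in siControl and 5.89, 6.34 and 2.07 CPM in siDGUOK libraries. The siDGUOK libraries were far below the siControl libraries, and siDGUOK replicate 3, with 45 counts, was the lowest. BDH1 had a log2 fold change of −2.19 ± 0.34 (SE; adjusted p = 0.000118, edgeR), and −1.5 when shrunken by DESeq2. ACAT1, the mitochondrial acetoacetyl-CoA thiolase, was the more abundant with 44.2 TPM in siControl cells, and had 70.4, 63.4 and 79.5 CPM in siControl and 54.7, 47.7 and 53.5 CPM in siDGUOK libraries. Its groups did not overlap. ACAT1 had a change of −0.45 ± 0.13 (SE; adjusted p = 0.0156, edgeR), and reached −0.53 without siControl replicate 2 and −0.50 without siDGUOK replicate 1, where it was called. Among the genes counted as mitochondrial, which do not include ACSM3, BDH1 had the largest fall. BDH1 has 2 annotated starts, and the stretch shown is the 250 bases before the outer start, chr3:197573344-197573593 on the minus strand of GRCh38.p14 (RefSeq).
BDH1: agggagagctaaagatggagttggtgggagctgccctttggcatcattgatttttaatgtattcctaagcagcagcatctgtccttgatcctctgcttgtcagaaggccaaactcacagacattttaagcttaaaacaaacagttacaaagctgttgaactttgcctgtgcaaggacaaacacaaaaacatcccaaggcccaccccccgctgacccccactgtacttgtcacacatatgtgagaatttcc
It held none of the motifs searched and had 45.6% G and C, while the window of the other start had 77.6%.

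In the peroxisome, EHHADH, ACOX2, HSD17B4 and SCP2 fell, and ACAA1, the most abundant, passed the adjusted p alone. EHHADH, the bifunctional enzyme that hydrates and dehydrogenates straight chains, was at 40.7, 40.1 and 47.2 CPM in siControl and 17.3, 15.3 and 14.0 CPM in siDGUOK libraries. The groups were far apart. Its log2 fold change was −1.45 ± 0.17 (SE; adjusted p = 5.47e-06, edgeR). ACOX2, the oxidase of branched chains and bile acid intermediates, was at 26.6, 32.5 and 27.8 CPM in siControl and 12.2, 9.73 and 18.1 CPM in siDGUOK libraries. The siDGUOK libraries were more spread, replicate 3 highest, and all lay below the siControl libraries. For ACOX2 the test gave −1.12 ± 0.23 (SE; adjusted p = 0.00139, edgeR). HSD17B4, the D-bifunctional protein for branched and very long chains, was at 106, 94.2 and 103 CPM in siControl and 48.3, 53.1 and 46.0 CPM in siDGUOK libraries. All siDGUOK values were well under the siControl values. HSD17B4 had a change of −1.04 ± 0.11 (SE; adjusted p = 2.01e-06, edgeR). SCP2, which encodes a thiolase of branched chains and a lipid carrier protein, was at 129, 136 and 126 CPM in siControl and 84.6, 70.7 and 66.7 CPM in siDGUOK libraries. There was no overlap, siDGUOK replicate 1 being the highest of its group. SCP2 had −0.82 ± 0.11 (SE; adjusted p = 1.88e-05, edgeR).

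ACAA1, the peroxisomal thiolase of straight chains, had 76.8 TPM in siControl cells, with 147, 148 and 154 CPM in siControl and 112, 138 and 109 CPM in siDGUOK libraries. Its siDGUOK replicate 2 lay near the siControl libraries and the others were lower. The log2 fold change was −0.32 ± 0.10 (SE; adjusted p = 0.0279, edgeR), too small for a call. The other peroxisomal genes, ACOX3, DECR2, CROT and ACOT8, had overlapping libraries and log2 fold changes between −0.08 and 0.45. CROT, which makes carnitine esters of shortened chains for export, was the lowest of the 9, at 3.92 TPM in siControl cells.

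Thioesterases split acyl-CoA back to free fatty acid and coenzyme A. ACOT2, in the mitochondrial matrix, was at 55.2, 53.1 and 56.1 CPM in siControl and 40.2, 28.8 and 41.8 CPM in siDGUOK libraries. ACOT1, its cytosolic paralog, was at 23.9, 31.0 and 24.0 CPM in siControl and 18.3, 12.8 and 19.2 CPM in siDGUOK libraries. For both genes siDGUOK replicate 2 was the lowest and the groups did not overlap. ACOT2 had a log2 fold change of −0.57 ± 0.15 and ACOT1 of −0.65 ± 0.21 (SE; adjusted p = 0.0116 and 0.0329, edgeR). The ACOT2 call was lost without siControl replicate 3 or siDGUOK replicate 2 (adjusted p from 0.0623 to 0.0632, edgeR), and the ACOT1 call without siControl replicate 2 or 3 or siDGUOK replicate 1 or 2 (adjusted p from 0.0574 to 0.149, edgeR). The sequences of this pair are closely alike, and reads that match both were left out of the counts, so their separate levels are uncertain.

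**Figure D3:**
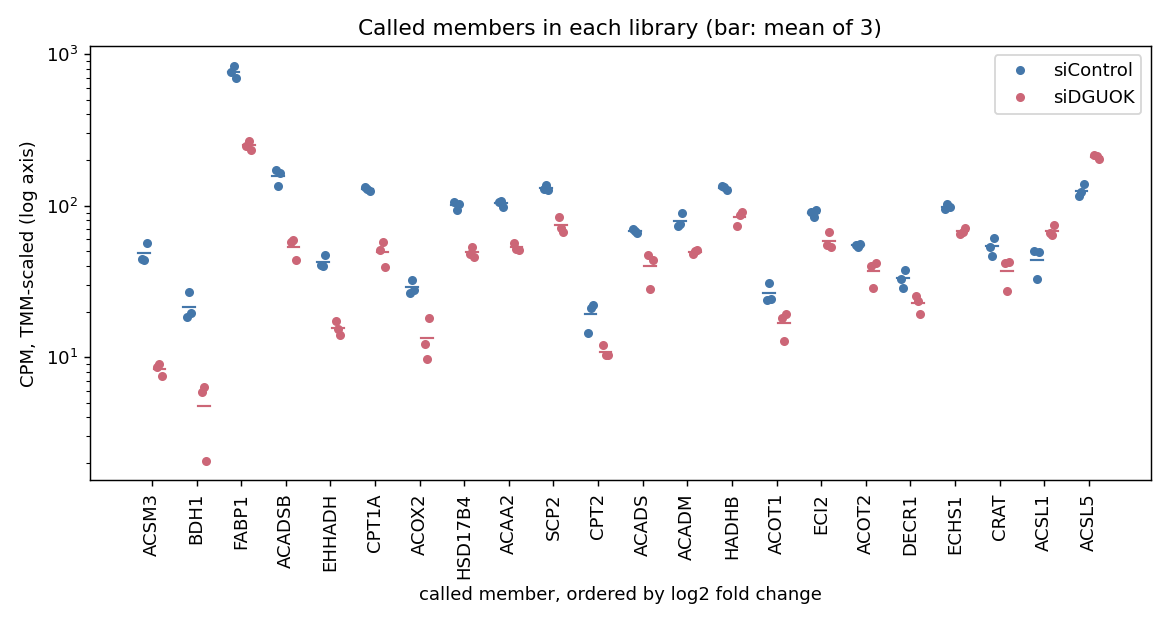
Level of the 22 called genes in each library, in CPM on a log axis, ordered by log2 fold change, with the mean of each group of 3 as a short line. For 20 genes all siDGUOK points lie below all siControl points, and for ACSL1 and ACSL5 all lie above.

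Summed over a step, the mitochondrial genes had 1897, 1955 and 1953 TPM in siControl and 1084, 1512 and 1547 TPM in siDGUOK libraries. The siDGUOK mean was 71.4% of the siControl mean, or 78.5% without genes under 200 bases, with siDGUOK replicate 1 lowered by the TRDJ counts. The peroxisomal genes had 261, 275 and 281 TPM in siControl and 135, 196 and 191 TPM in siDGUOK libraries. Their siDGUOK mean was 63.9% of that in siControl, or 70.2% without short genes. As summed CPM, which the TRDJ counts barely touch, the siDGUOK mean was 48.3 ± 3.17% of the siControl mean for the carnitine shuttle, 61.3 ± 3.71% for the ketone body genes and 68.0 ± 3.75% for activation (SD over the 3 siDGUOK libraries). It was 69.8 ± 2.52% for the acyl-CoA dehydrogenases, 70.5 ± 4.16% for the enzymes that complete the cycle, and 84.5 ± 4.25% for the isomerases and reductase. For the thioesterases it was 66.15 ± 13.04%. Summed by organelle, it was 80.77 ± 0.958% for the mitochondrial and 66.5 ± 3.095% for the peroxisomal genes. The electron transfer sum, at 109.0 ± 2.02%, overlapped between the groups. These sums are descriptions with no test, and each is led by its most abundant gene.

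Counting did not use strand and left out reads that overlap several genes, so genes that share exons are uncertain. Gencode 44 was used here for lengths and overlaps, where the authors used Gencode 27. In it, 26 of the 42 genes share exon bases with another gene, 11 of them called. ACADM, which was called, shares 9.83% with the pseudogene DLSTP1 and 1.14% with RABGGTB. With a single other gene, 9 genes share over 10% of their exon bases. Among called genes these were ACSM3 with ERI2 (11.5%), CPT2 with a long noncoding RNA (11.4%), SCP2 with the pseudogene TUBBP10 (15.5%) and ECI2 with TEX56P (27.2%). Of the genes not called, ACOT8 shares 34.2% with SNX21, ACAA1 19.7% with DLEC1, DECR2 14.3% with NME4, and CPT1B 66.4% with CHKB-CPT1B.

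Further genes of the pathway were taken as lists of ketogenesis, mitochondrial oxidation, peroxisome, regulator and PPARA target genes, 115 in all. Of these 109 were in the table and 98 were tested. In siDGUOK cells 20 fell, which is 20.4% (6.68% of all genes tested), and 6 rose, which is 6.12% (7.42% of all), with a median log2 fold change of −0.20. The siDGUOK libraries lay below the siControl libraries for 34 of the 98 and above them for 11, where 17.3% and 18.7% of all genes tested did. By list, 1 fell and 1 rose of 5 ketogenesis genes tested, 8 fell and 1 rose of 33 mitochondrial oxidation genes, 6 fell and 1 rose of 29 peroxisome genes, 4 fell and 3 rose of 26 regulators, and 4 fell and none rose of 10 PPARA targets (none of them positive at an unadjusted p under 0.05 in edgeR, and 0 called higher by DESeq2). Some genes stand in 2 lists.

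In ketogenesis outside the 42 genes, the monocarboxylate transporter gene SLC16A1 fell and SLC16A6 rose. SLC16A6, a transporter of the same family linked to ketone body export from liver, had 4.17, 6.66 and 8.68 CPM in siControl and 43.1, 41.3 and 44.03 CPM in siDGUOK libraries. All siDGUOK values were several times the siControl values. SLC16A6 had 2.75 ± 0.23 (SE; adjusted p = 9.08e-08, edgeR), and SLC16A1 had −0.51 ± 0.09 (SE; adjusted p = 0.000412, edgeR). The size of the SLC16A1 change was under 0.5 without siControl replicate 1 or siDGUOK replicate 3, at −0.47 and −0.44.

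In mitochondrial oxidation and uptake, SLC25A20, the carrier that exchanges acylcarnitines across the inner membrane, had 17.5, 17.1 and 16.4 CPM in siControl and 7.24, 5.97 and 5.71 CPM in siDGUOK libraries. The groups were far apart. Its log2 fold change was −1.43 ± 0.25 (SE; adjusted p = 0.000410, edgeR). ECH1, a dienoyl-CoA isomerase counted in the mitochondrial and peroxisomal lists, had −1.32 ± 0.14 (SE). The thioesterase ACOT11 fell by 1.80 on the log2 scale (1.0 when shrunken by DESeq2), the fatty acid translocase CD36 by 1.11, the transporter and very-long-chain synthetase SLC27A2 by 1.06, and the methylmalonyl-CoA mutase MUT by 0.79. ACBD3 had a log2 fold change of −0.67 and the medium-chain synthetase ACSF2 of −0.55. SLC27A4, another fatty acid transport protein, rose with 0.50 ± 0.15 (SE; adjusted p = 0.0234, edgeR), just past the fold change threshold. That call was lost without siControl replicate 1 or 2 or siDGUOK replicate 1 or 2 (log2 fold change from 0.41 to 0.48) and in both forms of DESeq2 (0.49 and 0.45), with RLE factors, without mitochondrially encoded genes and among genes with a mean CPM above 10 (0.49 in each). Likewise, ACSF2 was under that threshold at −0.48 without siControl replicate 1.

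In the peroxisome list, PHYH, the alpha-oxidation enzyme for phytanic acid, fell by 0.94 on the log2 scale, the reductase PECR by 0.61, the coenzyme A hydrolase NUDT7 by 1.35 (0.74 when shrunken by DESeq2), the acyl-CoA binding protein ACBD5 by 0.69 and the import factor PEX6 by 0.61. PEX2, which acts in peroxisomal protein import, rose with a log2 fold change of 0.69. The NUDT7 call was lost without siControl replicate 2 or 3 or siDGUOK replicate 2 or 3 (adjusted p from 0.0971 to 0.226, edgeR), and the PEX6 call without any 1 library other than siDGUOK replicate 1 (0.0771 to 0.120) and without a count filter (0.0557). ACBD5 lost its call without siControl replicate 1 or 3 or siDGUOK replicate 3 (adjusted p from 0.0693 to 0.157, edgeR), and PEX2 without siDGUOK replicate 1 (0.0590).

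Among regulators, PPARA, the nuclear receptor that activates fatty acid oxidation genes, had 40.9, 34.7 and 50.9 CPM in siControl and 39.8, 33.5 and 39.5 CPM in siDGUOK libraries. These ranges overlapped. The test gave PPARA a log2 fold change of −0.16 ± 0.16 (SE; adjusted p = 0.572, edgeR). The coactivator gene PPARGC1A also overlapped between groups, with −0.40 ± 0.28 (SE; adjusted p = 0.377, edgeR). CREB3L3, a liver transcription factor of the fasting response, had 10.2, 6.82 and 10.7 CPM in siControl and 1.78, 1.23 and 0 CPM in siDGUOK libraries. It was low in all siDGUOK libraries and at 0 in replicate 3. CREB3L3 had −3.21 ± 0.72 (SE; adjusted p = 0.00347, edgeR), whereas the Wald test of DESeq2 gave an adjusted p of 0.0994 and the shrunken fold change was −0.35. Its value was −4.0 without siDGUOK replicate 1 and −2.6 without siDGUOK replicate 3. KLF15 fell by 1.45 on the log2 scale (0.90 when shrunken by DESeq2), the acetyl-CoA carboxylase gene ACACA by 0.60, and HNF4A by 0.51. The nuclear receptors PPARD and ESRRA rose by 0.54 and 0.59, and PRKAG1, a subunit of AMP-activated kinase, by 0.64.

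Some of these regulator calls depended on 1 library or on the tool. PPARD had a log2 fold change of 0.48 when shrunken by DESeq2, 0.45 without siControl replicate 3 and 0.37 without siDGUOK replicate 3, ESRRA had 0.49 without siControl replicate 2, and HNF4A had −0.47 without siControl replicate 1 and also without siDGUOK replicate 3, all under the fold change threshold. KLF15 had an adjusted p of 0.0689 without siControl replicate 3 in edgeR's test. Of the PPARA targets named nowhere else, VNN1 fell by 0.81 and the lipid droplet gene CIDEC by 0.96 on the log2 scale. CIDEC lost its call without siControl replicate 2 or 3 or siDGUOK replicate 2 or 3 (adjusted p from 0.0542 to 0.181, edgeR).

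**Figure D4:**
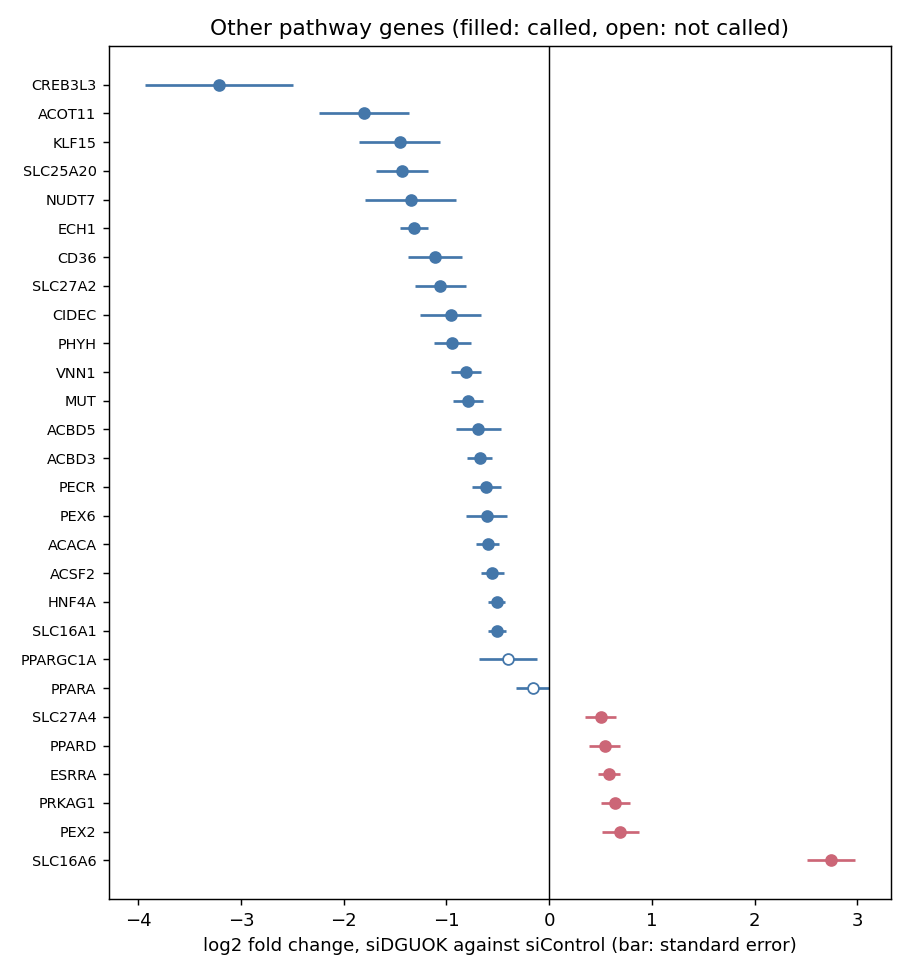
Log2 fold change with its standard error, siDGUOK against siControl, for the 26 called genes of the other pathway lists (filled) and for PPARA and PPARGC1A, which were not called (open). Blue points are negative and red points positive; SLC16A6 had 2.75 and CREB3L3 had −3.21.

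Promoter windows of 250 bases before the start were available in RefSeq for 31 of the 42 genes, as 45 entries, and 13 motifs were searched on both strands against all 35116 promoters. The motifs were chosen after promoters of these genes had been looked at. The direct repeat of AGGTCA with any 1 base between its copies, which PPARA binds with its partner RXRA, was in 0.0171% of all promoters and in none of the 45 entries, and neither were the 2 looser forms of this direct repeat that were searched (each in 0.0769%). The loose form seen in FABP1, which includes the strict repeat, was in 0.755% of promoters and in those of FABP1 and ACADS, where it began 30 bases before the ACADS start. The single element AGGTCA, which lies within the strict repeat, was in 12.1% of promoters and in those of ACAD10, ACSL5 and FABP1. For ACSL5 it lay in the window of the upstream start and not in the stretch shown above. No entry held CAAAGTCCA (0.325% of all promoters), CAAAGGTCA (0.339%), TCAAGGTCA (0.319%) or TTGCGCAA (0.131%). TATAAA was in ACADVL and FABP1 (10.7% of all), CACGTG in ACAD9 (6.35%), TGACGTCA in ACAD9 and ACOX3 (1.65%) and CCAAT in 9 of the entries (32.0%). A match describes the letters of these windows only, and binding was not measured. The median content of G and C was 65.6% in these entries and 58.0% in all promoters, and the HADHA and HADHB windows share 194 bases.

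The hepatocyte label was checked against lists of markers. Of 10 hepatocyte genes, all tested, 8 fell and none rose (0 positive at an unadjusted p under 0.05 in edgeR, 0 called higher by DESeq2), and for 9 of them the siDGUOK libraries lay below the siControl libraries. Their summed level was 56290, 50990 and 49580 CPM in siControl and 30210, 27050 and 25720 CPM in siDGUOK libraries, and none was at 0. ALB, with the highest TPM in every siControl library, was at 18790, 14270 and 15280 CPM in siControl and 6327, 5595 and 4280 CPM in siDGUOK libraries. APOA2 and SERPINA1 were not called. This decline of hepatocyte transcripts moved with the fall of the oxidation genes, and its part in the result was not tested.

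**Figure D5:**
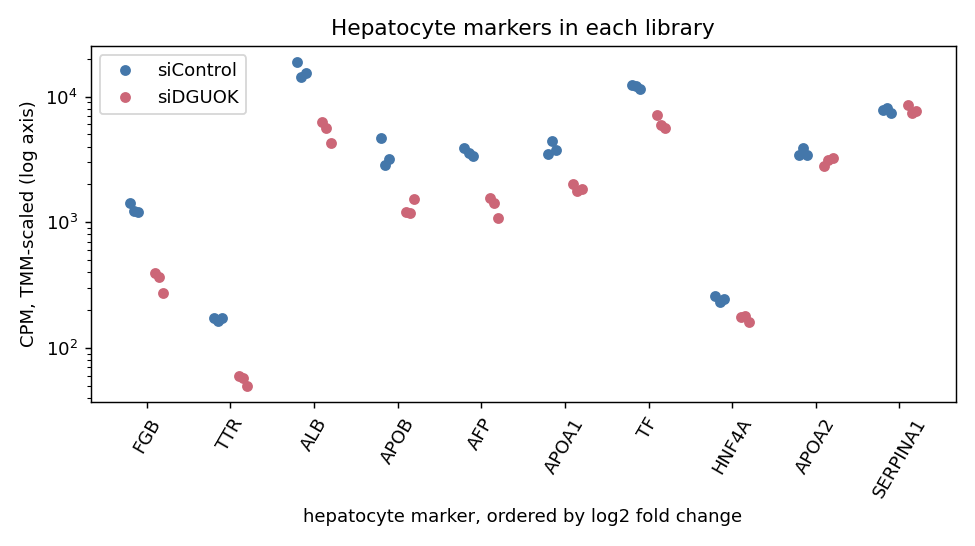
Level of the 10 hepatocyte markers in each library, in CPM on a log axis, ordered by log2 fold change. All siDGUOK points lie below all siControl points for 9 of the 10 markers, SERPINA1 being the exception.

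Markers of other cells were also summed. Muscle markers summed to between 1.18 and 5.89 CPM per library, with 1 of 7 genes tested. The adipocyte list of 6 summed to between 59.6 and 72.9 CPM, nearly all of it PPARG, with ADIPOQ at 0 in all libraries. The 6 leukocyte genes summed to between 1614 and 1902 CPM, led by LYZ. Without LYZ they had 3.95, 7.19 and 4.77 CPM in siControl and 6.38, 12.4 and 5.66 CPM in siDGUOK libraries, and none was called in edgeR's test, at an unadjusted p under 0.05 or by DESeq2. The 7 fibroblast and endothelial genes summed to 13.04, 16.4 and 12.6 CPM in siControl and 39.3, 100.6 and 25.6 CPM in siDGUOK libraries. By TPM, PDGFRB was the highest of them in every siControl library, COL1A1 in siDGUOK replicates 1 and 3 (at 20.2 and 17.4 CPM) and VWF in siDGUOK replicate 2 (at 31.4 CPM). Of the 5 tested in edgeR, COL1A1 rose and PDGFRB fell, and 3 were positive and 1 negative at an unadjusted p under 0.05. The PDGFRB call was lost without any 1 library other than siDGUOK replicate 2 (adjusted p from 0.0551 to 0.125, edgeR). DESeq2 called 3 higher, COL1A1, COL3A1 and DCN, and PDGFRB lower. COL3A1 had 0, 0.0533 and 0 CPM in siControl and 7.997, 15.6 and 0.414 CPM in siDGUOK libraries. In siDGUOK replicate 2, PECAM1 at 15.9 and CDH5 at 8.93 CPM were above the values of all other libraries. The part of these transcripts in the result was not tested. Without siDGUOK replicate 2, 15 of the 42 genes were called lower and 2 higher, and without siDGUOK replicate 1, 20 and 2.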

How the data were processed

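Gene counts from the 6 HepG2 libraries were used as the authors deposited them, raw and not normalized. The authors had removed tRNA, rRNA and adapter reads, used STAR 2.6.1 to align the rest to GRCh38, filtered out alignments of low complexity (a DUST score over 4) and counted with featureCounts 1.6.5 at its defaults plus a quality cutoff of 10, so strand was not used, duplicates stayed in, and reads with several matches or genes were dropped. Titles and library names gave the groups; the treatment label reads siControl throughout.

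Genes passing filterByExpr (minimum count 10) were fitted by condition alone with TMM factors in edgeR 4.0.16 (R 4.3.3). TPM was computed from the deposited counts and the exon union of each gene in Gencode 44, which understates genes with long rare exons. Replicates differed beyond counting noise (chi-square divided by its degrees of freedom, 10.9 to 27.2), and the steps were tested on simulated data. Alternatives were DESeq2 1.42.0, other factors, filters and thresholds, a block and each library left out.

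The 42 genes and the other lists were chosen with earlier results of these data known. Genes named are those called, the most abundant of each step, those passing the adjusted p alone where they decide a count, DGUOK, and SLC25A20, PPARA and PPARGC1A. Other named genes were singled out after their values were seen. CIDEA, CYP4A11, CYP4A22, HMGCLL1, LYRM5, MYH2 and SLC27A6 were not analysed here, and 4 genes of the other and marker lists are not reported here and left out of their counts.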

Additional observations from a re-analysis of the deposited data

How the results depend on the processing

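Of the 22 calls among the 42 genes, 16 were kept at the same thresholds in every other fit that gave a value. The 20 genes called lower were 15 to 20 without 1 library, 18 with DESeq2's shrunken fold changes, 21 without a count filter and 25 at the adjusted p alone, and 8 at a log2 fold change above 1. At the adjusted p alone, 9.35% of all genes tested were lower. The 2 called higher were 1 to 2 without 1 library and 0 at that threshold. Among the other pathway genes, the 20 called lower were 14 to 20 without 1 library and 8 at a log2 fold change above 1, and the 6 called higher were 4 to 6 and 1. DGUOK ran from −2.72 to −2.42 without 1 library. Over all alternatives 520 of 557 fold changes of the 42 genes kept their direction and side of the threshold, 19 lost and 7 gained a call, and 11 changed sign, all on leaving out 1 library and none in a called gene: the log2 fold change ran from −0.081 to 0.053 for ACADVL, −0.28 to 0.54 for ACAD11, −0.042 to 0.19 for ECI1, −0.0076 to 0.28 for DECR2 and −0.22 to 0.11 for ACOT8. For the other lists only the 26 called genes, PPARA and PPARGC1A were followed singly, and of their 388 fold changes 347 kept both and 41 lost a call. Summed levels in siDGUOK as CPM in place of TPM were 74.2% of siControl for all 42 genes, 68.0% for activation and 48.3% for the carnitine shuttle, and the ACSL1, ACSL3, ACSL4 and ACSL5 shares were 6.19%, 33.4%, 41.4% and 19.1%; TPM divides by gene length, and all TPM in siDGUOK replicate 1 was lowered, which leaves shares as they are. Leaving out genes under 200 bases was added after seeing the data and kept each sum within the spread of the replicates. That spread was itself widened by siDGUOK replicate 1, so it is a weak measure. The SD of the siDGUOK mitochondrial sum was 257.6 TPM with these genes and 29.1 TPM without. The electron transfer sum went from 99.9% of siControl, with overlapping groups, to 110.0%, with all siDGUOK libraries above. The median of all genes was 0.02 in edgeR and 0.13 in DESeq2, which also fits genes of lower count. With replicate number as a replicate block, 22 of the 42 were called lower and 2 higher, and 19 and 5 of the other genes. The DGUOK log2 fold change was −2.58. With this block ACAD10 and ETFDH gained a call (adjusted p = 0.0409 and 0.0335, edgeR). NUDT7 lost its call (adjusted p = 0.0577, edgeR), and SLC27A4 was under the fold change threshold at 0.497. Same-numbered libraries correlated at 0.024, 0.017 and −0.0022 after group means were removed, so the numbers gave no pairing.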
